A study of Homo sapiens with 12 samples.

Results

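H3K27ac, the acetylated lysine of histone H3 found at active promoters and enhancers, was examined over the stretch of human chromosome 6 from 25.7 to 32.3 Mb (hg19), which holds histone gene cluster 1 and the class I and class III parts of the MHC. All peaks lying wholly inside the stretch were taken from the 6 peak lists and joined where they shared at least 1 base, which gave 140 merged regions of 48876 in all. The cells were SUDHL4, a line from a diffuse large B-cell lymphoma, edited with CRISPR/Cas9 and grown from single cells, with 1 H3K27ac library and 1 input library per clone. The CREBBP-KO group was 2 clones made with guides against exon 15 or exon 20 of CREBBP, the EP300-KO group was 2 clones made with guides against exon 17 or exon 24 of EP300, and the WT group was 2 control clones edited at PPP1R12C with CREBBP unedited. Exon 15 is the number in the protocol, and the title of that clone gives a different exon. Each clone is a line of its own, so the tests rest on how much clones of a genotype vary. The smallest p that an exact permutation of 2 clones against 2 can give is 0.333.

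The stretch was read in 3 pieces. Sub-stretch A (25.7 to 28.5 Mb) holds the histone genes, the butyrophilins and a run of zinc finger genes, sub-stretch B (28.5 to 31.5 Mb) holds the MHC class I genes, and sub-stretch C (31.5 to 32.3 Mb) holds the class III genes. Of the regions, 133 lay in A, 0 in B and 7 in C. Peaks thus lay densely over the histone genes and were few or missing over the MHC genes, so in these lists the label of an MHC class I stretch is not borne out by any peak. No peak crossed an edge of the stretch or of a piece. The outermost members were a peak of 210 bases at chr6:25750231-25750440, found in the first EP300-KO clone alone, and a region at chr6:32160861-32161086 with peaks in 4 clones. The nearest regions outside lay at chr6:25405949-25406051 and chr6:32404271-32404465, with 103 and 195 bases in the first WT clone and 0 in the other clones.

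Histone cluster 1 carries most human genes for the replication-dependent histones, the core histones H2A, H2B, H3 and H4 and the linker histone H1 that dividing cells make in S phase to package new DNA. CREBBP and EP300 are closely related acetyltransferases that deposit the H3K27ac mark. MHC class I genes encode the molecules that show peptides to cytotoxic T cells, and the class III part holds complement, heat shock and tumour necrosis factor genes. The butyrophilins of sub-stretch A are membrane proteins related to the B7 family, several of which take part in the activation of gamma delta T cells.

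The annotation at hand is of another build (GRCh38.p14), so genes are named here only for the 100-kb hg19 window in which they are generally known to lie, and each window holds other genes too. All 66 gene names used were found on chromosome 6 in RefSeq, and all 42 pairs of neighbouring named windows had the same gene order there. RefSeq has 55 replication-dependent histone genes on chromosome 6. Of these, 32 lie between SLC17A2 and BTN3A2, 5 between ZNF322 and PRSS16, and 16 between ZNF184 and OR2B2, and the other 2 lie between SLC17A1 and SLC17A4.

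Promoters of 6 genes are shown, 3 from histone windows and 3 from the windows where the knock-outs differed most clearly. They are RefSeq sequences of GRCh38.p14, each running 5′ to 3′ from 250 bases before the gene's start to 50 after it. Capitals mark, on either strand, the letters of the TATA box (TATAA), the CCAAT box (CCAAT), the octamer (ATTTGCAT) and the H1 box (AAACACA), and matches may overlap each other. H2AC6, a core histone H2A gene, and H1-4, a linker histone gene, lie in the window 26.1 to 26.2 Mb, and H2BC12, a core histone H2B gene, lies in the window 27.1 to 27.2 Mb. BTN2A1, a butyrophilin, ABT1, an activator of basal transcription, and ZNF184, a zinc finger gene, stand for the windows that start at 26.4, 26.5 and 27.4 Mb.
H2AC6: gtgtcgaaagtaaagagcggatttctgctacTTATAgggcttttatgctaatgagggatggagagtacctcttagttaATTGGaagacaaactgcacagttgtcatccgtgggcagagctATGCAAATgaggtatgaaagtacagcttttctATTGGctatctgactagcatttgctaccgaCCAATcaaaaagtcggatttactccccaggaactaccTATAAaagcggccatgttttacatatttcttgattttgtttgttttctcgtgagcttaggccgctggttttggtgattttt
H1-4: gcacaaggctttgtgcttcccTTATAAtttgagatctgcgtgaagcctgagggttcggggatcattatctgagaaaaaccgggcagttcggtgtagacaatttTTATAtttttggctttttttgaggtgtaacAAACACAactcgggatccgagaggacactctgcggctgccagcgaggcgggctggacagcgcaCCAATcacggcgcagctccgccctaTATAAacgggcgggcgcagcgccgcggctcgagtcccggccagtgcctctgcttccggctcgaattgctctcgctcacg
H2BC12: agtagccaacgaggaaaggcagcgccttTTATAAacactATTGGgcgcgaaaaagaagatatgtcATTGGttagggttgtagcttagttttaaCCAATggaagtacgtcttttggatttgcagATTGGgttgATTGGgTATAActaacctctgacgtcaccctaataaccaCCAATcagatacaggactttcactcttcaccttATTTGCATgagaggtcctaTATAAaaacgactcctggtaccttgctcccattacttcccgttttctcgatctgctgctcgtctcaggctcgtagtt
BTN2A1: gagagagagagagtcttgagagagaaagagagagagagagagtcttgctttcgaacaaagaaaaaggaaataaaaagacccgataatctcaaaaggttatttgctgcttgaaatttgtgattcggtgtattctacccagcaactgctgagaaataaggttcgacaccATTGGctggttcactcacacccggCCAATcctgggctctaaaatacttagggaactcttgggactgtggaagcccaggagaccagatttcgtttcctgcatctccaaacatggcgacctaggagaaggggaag
ABT1: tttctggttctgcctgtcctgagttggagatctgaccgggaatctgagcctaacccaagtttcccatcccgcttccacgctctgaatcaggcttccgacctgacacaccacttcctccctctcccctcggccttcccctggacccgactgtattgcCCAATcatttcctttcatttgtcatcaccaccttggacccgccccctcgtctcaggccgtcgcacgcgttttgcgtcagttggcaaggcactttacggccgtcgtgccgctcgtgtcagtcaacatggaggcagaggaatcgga
ZNF184: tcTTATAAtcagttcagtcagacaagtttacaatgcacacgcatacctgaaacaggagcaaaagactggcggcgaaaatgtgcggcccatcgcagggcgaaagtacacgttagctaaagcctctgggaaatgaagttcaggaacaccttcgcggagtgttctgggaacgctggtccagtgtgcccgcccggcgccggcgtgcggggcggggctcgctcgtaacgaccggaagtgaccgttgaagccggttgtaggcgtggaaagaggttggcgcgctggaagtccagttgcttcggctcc

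Of the 55 histone genes, 50 had a RefSeq promoter in the table. TATAA was found in 49 of the 50 (98%), against 21.1% of all 27305 promoters. CCAAT was found in 43 (86%), against 35.7% of all promoters, and in 3 of the 10 H4 promoters. The octamer was found in 22 (44%), against 1.8% of all promoters, of which 9 belonged to the 11 H2A genes, 12 to the 15 H2B genes and 1 to the 8 H3 genes. The H1 box was found in 6 of 6 H1 promoters and in 0 of the other histone promoters, against 5.76% of all promoters. It was not particular to H1 genes, since 3 of the 4 butyrophilin promoters between H4C8 and HMGN4 held it too, with each gene read at the first start that the RefSeq table lists. For BTN3A2 the table lists another start, whose promoter did not hold it. In the sequences above, the H2AC6 and H2BC12 promoters each hold 1 octamer, the H1-4 promoter holds 1 H1 box, and the BTN2A1, ABT1 and ZNF184 promoters hold neither. These matches describe letters in a window and are not evidence of binding.

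**Figure D1:**
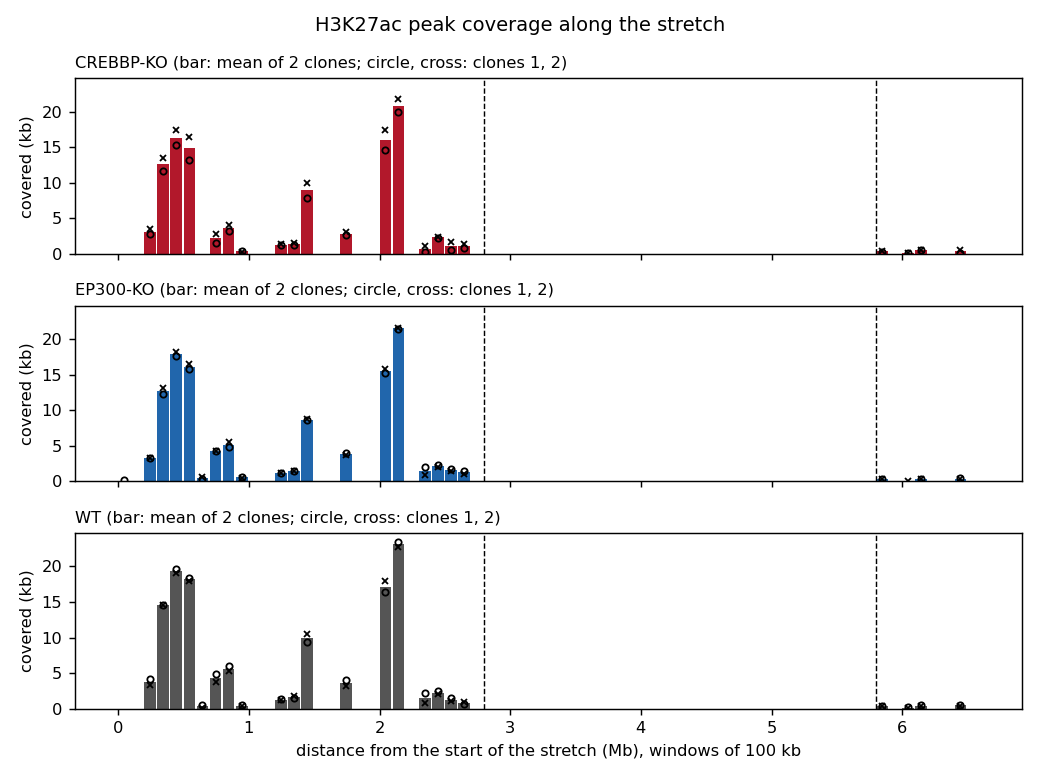
Covered length of H3K27ac peaks (kb, y axis) in each 100-kb window against distance from the start of the stretch (Mb, x axis), for CREBBP-KO, EP300-KO and WT. Bars are means of 2 clones, circles and crosses are the clones, and dashed lines part sub-stretches A, B and C. In each genotype the high bars are the 6 histone windows, and sub-stretch B is empty.

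The 66 windows of 100 kb held peaks of at least 1 clone in 23 cases, 19 of 28 in sub-stretch A, 0 of 30 in B and 4 of 8 in C. Covered length is the number of bases under peaks. It is a measure of how much sequence is called as acetylated and not of how strongly. Over the whole stretch it was 101 and 122 kb in the CREBBP-KO clones, 120 and 121 kb in the EP300-KO clones and 134 and 128 kb in the WT clones. All 4 knock-out clones lay below both WT clones.

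These lengths need reading against the lists they come from. The lists held 36096 and 41099 peaks in the CREBBP-KO clones, 35054 and 35841 in the EP300-KO clones and 46940 and 40658 in the WT clones. As a share of all covered bases of the list, sub-stretch A took 0.354% and 0.341% in CREBBP-KO, 0.455% and 0.458% in EP300-KO and 0.389% and 0.406% in WT. On this scale the genotypes did not overlap, with CREBBP-KO lowest and EP300-KO highest (two-sided exact permutation p = 0.333 for each pair, the smallest possible). The log2 ratio of mean shares to WT was -0.19 for CREBBP-KO and 0.20 for EP300-KO. In unscaled bases the EP300-KO clones lay below WT instead (log2 ratio -0.12), so the direction for EP300-KO rests on the scaling. The share for sub-stretch C was 0.0046% and 0.0050% in CREBBP-KO, 0.0046% and 0.0042% in EP300-KO and 0.0051% and 0.0040% in WT, where all groups overlapped.

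**Figure D2:**
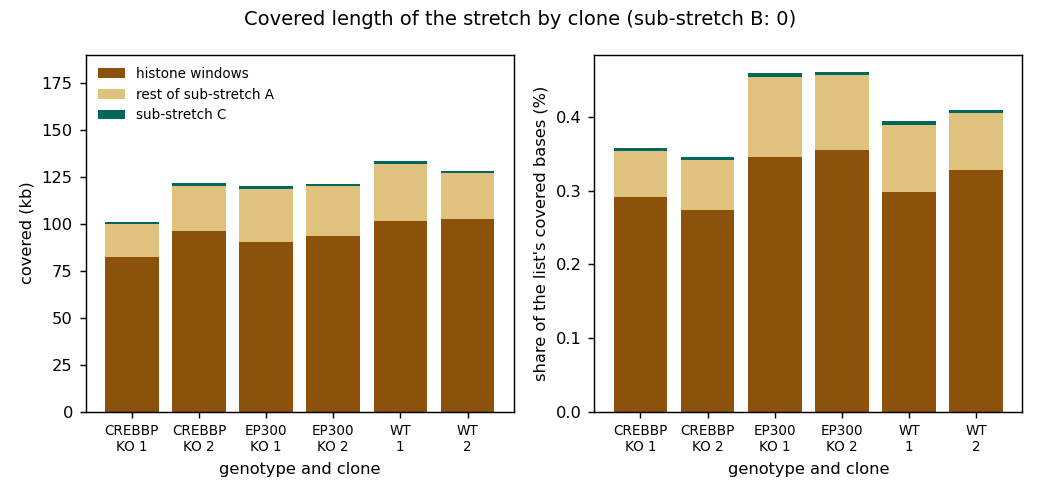
Covered length of the stretch in each clone, in kb (left) and as a percentage of all covered bases of that clone's list (right), stacked by histone windows, the rest of sub-stretch A and sub-stretch C. The EP300-KO clones stand highest as a share (0.460% and 0.462% for the whole stretch) but below the WT clones in kb.

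The histone genes dominated. The 6 histone windows made up 81.2% and 79.0% of the covered length of the stretch in CREBBP-KO, 75.4% and 77.1% in EP300-KO and 75.8% and 80.0% in WT. They were covered over 137 and 160 kb per Mb in CREBBP-KO, 151 and 156 kb per Mb in EP300-KO and 169 and 171 kb per Mb in WT. The rest of sub-stretch A had 8.04 and 10.8 kb per Mb in CREBBP-KO, 12.9 and 12.1 kb per Mb in EP300-KO and 13.9 and 11.1 kb per Mb in WT. Set against the 2407 windows of 1 Mb that held a peak, whose median was 7.35 kb, the window 26 to 27 Mb averaged 57.9 kb over the 6 clones and was exceeded by 33 windows. The window 27 to 28 Mb averaged 52.2 kb and was exceeded by 51.

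Peaks in the histone windows were also wide. Their median width was 1021 and 1002 bases in CREBBP-KO, 1096.5 and 881 bases in EP300-KO and 712 and 784 bases in WT. Over the whole lists it was 465 and 491 bases in CREBBP-KO, 461 and 453 bases in EP300-KO and 426 and 457 bases in WT. Histone windows held 63 and 68 peaks in CREBBP-KO and 62 and 69 in EP300-KO, fewer than the 87 and 78 in WT. As a share of the peaks of each list, this was 0.175% and 0.165% in CREBBP-KO, 0.177% and 0.193% in EP300-KO and 0.185% and 0.192% in WT. On this scale EP300-KO overlapped WT, and CREBBP-KO lay below WT. In every clone the median score of peaks in histone windows stood above the middle of its own list, at the percentiles 72.6 and 70.6 in CREBBP-KO, 78.2 and 75.8 in EP300-KO and 59.9 and 61.8 in WT. The score is the authors' own value per peak, with no stated meaning, and was read only as a rank within a list.

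The longest members by mean covered length were nearly as long in the knock-outs as in WT.
The region chr6:26025599-26031306, in the window named for H1-2, H3C2 and HFE, the last an MHC-like regulator of iron uptake, had 4692 and 5461 bases in CREBBP-KO, 4778 and 5188 in EP300-KO and 5233 and 5652 in WT.
The region chr6:27832409-27837807, in the window of H1-5 and H2AC17, had 5089 and 5081 bases in CREBBP-KO, 5123 and 5051 in EP300-KO and 5380 and 5072 in WT.
The region chr6:27802641-27807739, in the same window, had 4496 and 4913 bases in CREBBP-KO, 4940 and 4783 in EP300-KO and 4460 and 5062 in WT. The groups overlapped in all of these except the EP300-KO and WT clones of the H1-2 region. The last region held peaks ranked between the percentiles 96.2 and 98.4 of all 6 lists.

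Wide domains were formed from peaks no more than 12.5 kb apart that covered at least 10 kb together, and the stretch held 2 and 4 of them in CREBBP-KO, 2 and 4 in EP300-KO and 4 and 5 in WT. All of them overlapped histone windows. The widest in covered length lay in every clone near chr6:27774644-27807739, the bounds in the first WT clone, across the windows of H4C11, H2BC14, H1-5 and H2AC17. It covered 19.5 and 22.4 kb in CREBBP-KO clones, 20.2 and 20.6 kb in EP300-KO clones and 21.2 and 23.1 kb in WT. It ranked 88 of 409 and 104 of 606 domains in CREBBP-KO, 34 of 268 and 37 of 291 in EP300-KO and 94 of 520 and 61 of 474 in WT.

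Window by window, 4 of the 6 histone windows were shorter in both CREBBP-KO clones than in either WT clone (against 18.3% of all windows tested), and all 6 were shorter in both EP300-KO clones (against 55%).
The window of H1-4, H2AC6 and H2BC4 (26.1 to 26.2 Mb) had 15.3 and 17.4 kb in CREBBP-KO clones, 17.6 and 18.2 kb in EP300-KO clones and 19.7 and 19.1 kb in WT.
The window of H1-3 and H4C8 (26.2 to 26.3 Mb), a linker and a core histone gene, had 13.2 and 16.5 kb in CREBBP-KO clones, 15.7 and 16.4 kb in EP300-KO clones and 18.4 and 18.0 kb in WT.
The window of H2AC11 and H2BC12 (27.1 to 27.2 Mb) had 7.88 and 10.0 kb in CREBBP-KO clones, 8.57 and 8.80 kb in EP300-KO clones and 9.32 and 10.6 kb in WT. In the last window CREBBP-KO spanned the EP300-KO values and overlapped WT.

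The outright lengths were then tested with limma across the whole series, on log2(covered bases + 100) centred on each clone's median, with p-values adjusted by Benjamini-Hochberg over all features and a threshold of 0.05. Features entered if covered well enough in at least 2 clones (500 bases for a region, 1000 for a window), which left 60 of the 140 members and 16 of the 66 windows. Centring matters here. Without it the median over all regions moved by -0.20 for EP300-KO over WT and by 0.16 for CREBBP-KO over EP300-KO, so members are best read against the median of all features.

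CREBBP-KO was set against WT first. None of the 60 members and none of the 16 windows passed, where 0.0101% of all 19860 regions and 0% of all 6988 windows did. At an unadjusted p under 0.05, 11 members and 3 windows were lower and 0 were higher, which is 18.3% of members against a background of 8.83%, and 18.8% of windows against 13.9%. Members had a median log2 difference of -0.08 and all regions 0.02, and 53 of the 60 members tested lay below the median of all regions. In covered bases, 26 members were shorter in both CREBBP-KO clones than in either WT clone (43.3%, against 17.6% of all regions tested) and 0 were longer (against 16.2%). The 6 histone windows differed from WT by between -0.20 and -0.01, with adjusted p from 0.33 to 0.97.

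EP300-KO against WT gave no call either. None of the 60 members and none of the 16 windows passed, where 7.34% of all regions and 8.97% of all windows did. At an unadjusted p under 0.05, 4 members (6.67%, against 24.9% of all regions) and 2 windows (12.5%, against 26.7%) were higher and 0 were lower. The members' median was 0.16 and that of all regions 0.06. Without centring these medians were -0.04 and -0.14, so the members' sign depends on centring. Their distance of 0.10 from all regions cannot change with centring, which moves all regions of a clone alike. Over the other alternatives this distance ran from 0.05 with quantile normalization to 0.13 with no filter on covered bases. In covered bases, 23 members were shorter in both EP300-KO clones than in either WT clone (38.3%, against 50.4% of all regions tested) and 4 were longer (6.67%, against 9.82%).

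The knock-outs differed from each other in a few places, all lower in CREBBP-KO and most of them outside the histone windows. Of the 60 members, 3 fell in CREBBP-KO relative to EP300-KO (5%, against 1.9% of all regions that were lower) and 0 rose. Of the 16 windows, 3 fell (18.8%, against 3.25%) and 0 rose. Over the whole series the main direction was the opposite. Of all 19860 regions 1432 rose and 378 fell, and of all 6988 windows 747 rose and 227 fell. At an unadjusted p under 0.05, 18 members (30%, against 27.3% of all regions in either direction) and 5 windows (31.2%, against 30.4%) were lower and 0 were higher. The members' median log2 difference was -0.22 against -0.04 for all regions, and 55 of 60 members lay below the median of all regions. For the 41 members tested in histone windows the median was -0.20, and for the other 19 it was -0.42. In covered bases, both CREBBP-KO clones lay below both EP300-KO clones in 24 members (40%, against 12.4%) and above both in 3 (5%, against 46.4%).

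**Figure D3:**
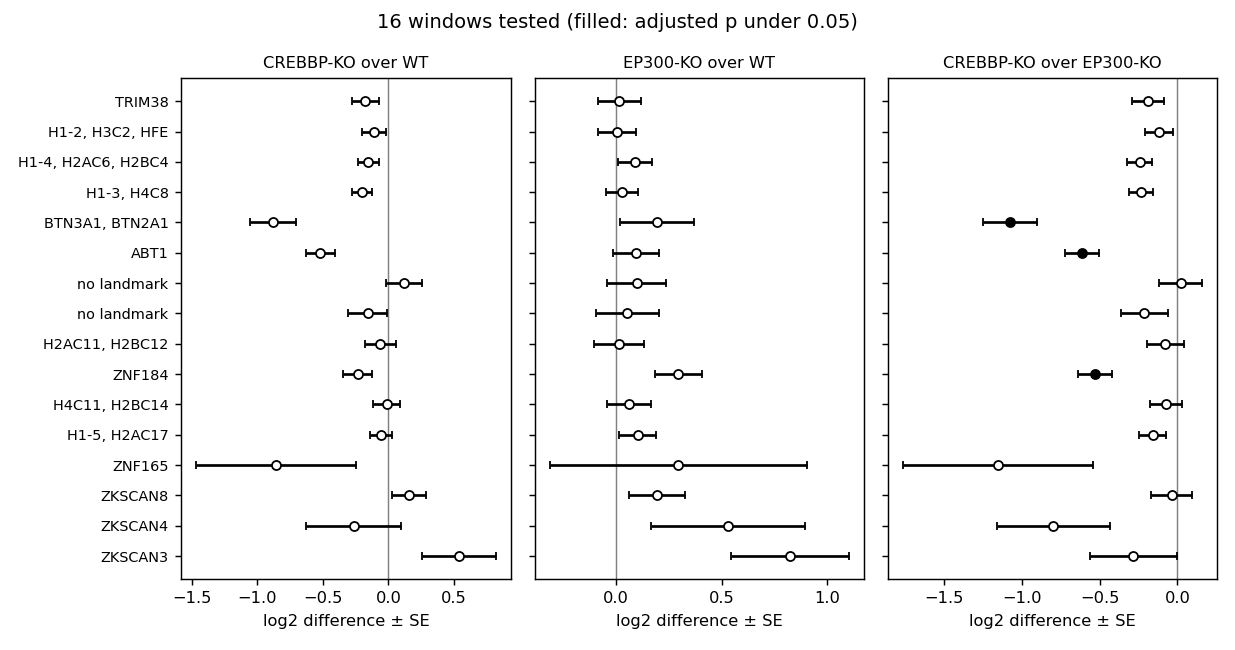
Log2 differences (x axis, ± SE of limma's fit) of the 16 windows tested, in order along the stretch and named for genes in them, for CREBBP-KO over WT, EP300-KO over WT and CREBBP-KO over EP300-KO. Filled points have an adjusted p under 0.05, and the 3 filled points are the BTN3A1 and BTN2A1, ABT1 and ZNF184 windows in the comparison between the knock-outs.

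The butyrophilin window (26.4 to 26.5 Mb) showed the largest of these differences. BTN3A1 binds phosphoantigens inside the cell, and BTN2A1 is its partner in alerting gamma delta T cells. The window had 1.59 and 2.78 kb in CREBBP-KO clones, 4.22 and 4.20 kb in EP300-KO clones and 4.87 and 3.71 kb in WT. Both CREBBP-KO clones lay below all 4 other clones, while the EP300-KO values fell between the WT values. CREBBP-KO over EP300-KO was -1.08 (SE 0.17, limma adjusted p = 0.018, and from 0.012 to 0.091 over 14 alternatives), and CREBBP-KO over WT was -0.88 (SE 0.17, adjusted p = 0.16). The call ended without centring and when the first CREBBP-KO clone, or any EP300-KO clone, was left out. The neighbouring BTN3A2 window (26.3 to 26.4 Mb) was empty in CREBBP-KO and had 0.276 and 0.574 kb in EP300-KO and 0.581 and 0.116 kb in WT, too little to be tested.

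Within the butyrophilin window the region chr6:26473256-26475801 passed as well. It had 882 and 1576 bases in CREBBP-KO, 2255 and 2014 in EP300-KO and 2226 and 2339 in WT. Its log2 difference between the knock-outs was -0.96 (SE 0.19, limma adjusted p = 0.039, and from 0.035 to 0.14 over 15 alternatives). This call ended without centring, with equal list length, with an untrended prior, and when the first CREBBP-KO clone, the second WT clone or any EP300-KO clone was left out. Against WT it was -0.85 in CREBBP-KO (SE 0.19, adjusted p = 0.31) and 0.11 in EP300-KO (adjusted p = 0.73). Its best-scoring peak ranked at the percentiles 67.6 and 70.1 in CREBBP-KO, 90.5 and 91.1 in EP300-KO and 89.2 and 77.3 in WT, so the region stood lower in the CREBBP-KO lists by rank of score as well as by length. The other region of this window held by all 6 clones, chr6:26458066-26458986, was nearly level with WT in CREBBP-KO (-0.06, limma adjusted p = 0.94). In EP300-KO it differed from WT by 0.41 (adjusted p = 0.12), and between the knock-outs by -0.47 (adjusted p = 0.079).

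The ABT1 window (26.5 to 26.6 Mb) followed the same order. It had 3.24 and 4.04 kb in CREBBP-KO clones, 4.80 and 5.57 kb in EP300-KO clones and 5.97 and 5.25 kb in WT, again with both CREBBP-KO clones below all others. The difference between the knock-outs was -0.61 (SE 0.11, limma adjusted p = 0.022, and from 0.016 to 0.13 over 14 alternatives), and CREBBP-KO over WT was -0.52 (SE 0.11, adjusted p = 0.17). The call ended without centring and when any of the 4 knock-out clones was left out. In this window the region chr6:26521516-26522274 had 191 and 0 bases in CREBBP-KO, 552 and 562 in EP300-KO and 351 and 608 in WT, with a difference between the knock-outs of -2.11 that did not pass (SE 0.64, adjusted p = 0.11).

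The ZNF184 window (27.4 to 27.5 Mb) had 2.66 and 3.08 kb in CREBBP-KO clones, 4.02 and 3.70 kb in EP300-KO clones and 4.06 and 3.23 kb in WT. CREBBP-KO lay below both other groups, which overlapped each other. The difference between the knock-outs was -0.53 (SE 0.11, limma adjusted p = 0.032, and from 0.021 to 0.19 over 14 alternatives), and CREBBP-KO over WT was -0.23 (SE 0.11, adjusted p = 0.40). Its region chr6:27445303-27447832 had 1586 and 1699 bases in CREBBP-KO, 2202 and 2149 in EP300-KO and 2352 and 1990 in WT (CREBBP-KO over EP300-KO -0.55, SE 0.10, limma adjusted p = 0.032, and from 0.030 to 0.14 over 15 alternatives). Both calls ended without centring, with an untrended prior and when any of the 4 knock-out clones was left out, and that of the region also with equal list length.

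In the histone windows 1 region passed between the knock-outs, chr6:26124285-26126369 in the window of H1-4, H2AC6 and H2BC4. It had 1233 and 1788 bases in CREBBP-KO, 1930 and 1946 in EP300-KO and 2085 and 1797 in WT. The CREBBP-KO clones differed more from each other than the second did from any EP300-KO or WT clone. The difference was -0.53 (SE 0.11, limma adjusted p = 0.0498), and it stayed under the threshold in 2 of 15 alternatives (adjusted p from 0.048 to 0.29), in none of those that left out a clone. The 6 histone windows differed between the knock-outs by between -0.24 and -0.07, with adjusted p from 0.095 to 0.72.

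**Figure D4:**
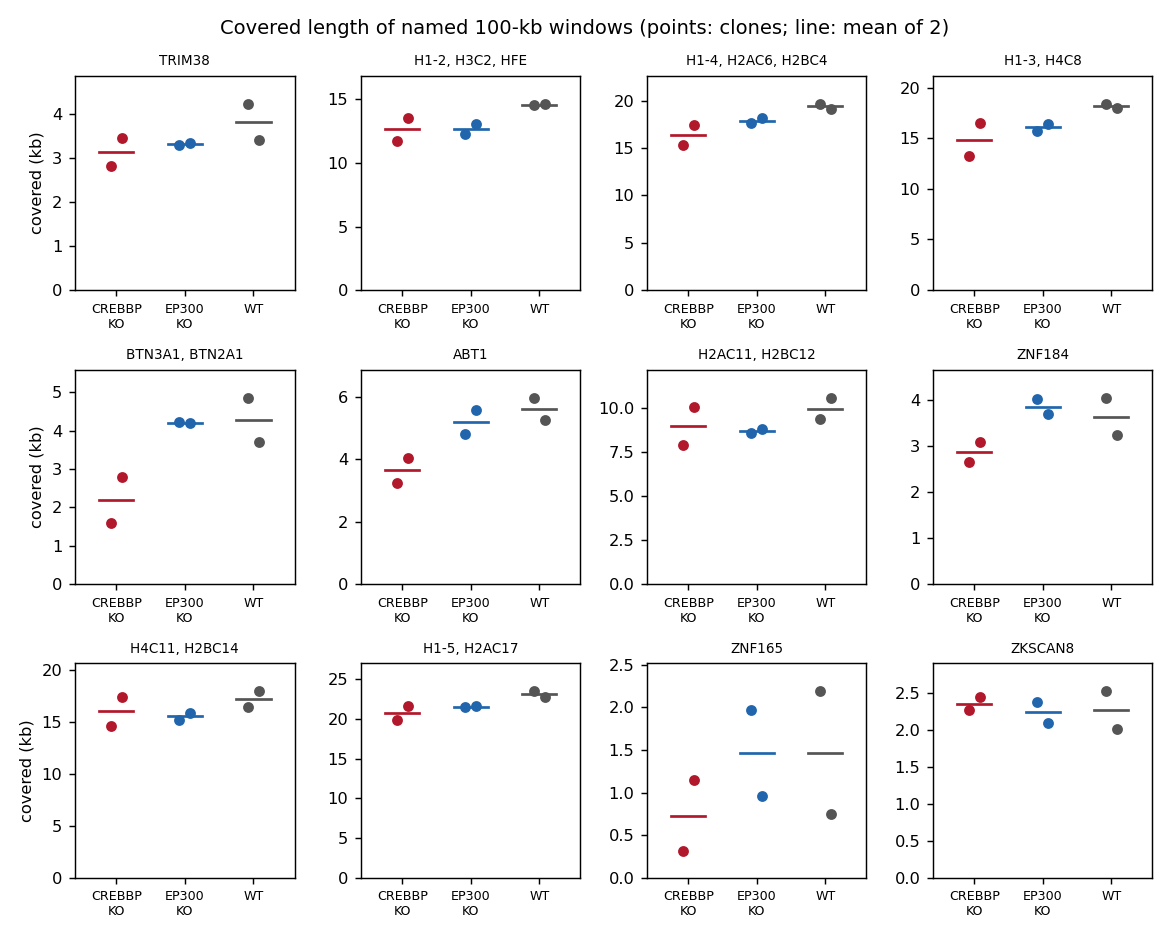
Covered length (kb, y axis from 0) of the 12 named windows with at least 2 kb in some clone, for CREBBP-KO, EP300-KO and WT. Points are clones and lines are means of 2. Both CREBBP-KO clones lie under all other clones in the BTN3A1 and BTN2A1, ABT1 and ZNF184 panels. They do so too in the histone panel of H1-4, H2AC6 and H2BC4, while in the H2AC11 and H2BC12 panel they overlap the other groups.

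The remaining windows of sub-stretch A gave no call. The window of TRIM38, a ubiquitin ligase that tempers innate immune signalling, had 2.83 and 3.46 kb in CREBBP-KO clones, 3.29 and 3.34 kb in EP300-KO clones and 4.23 and 3.40 kb in WT. The ZKSCAN8 window, of a zinc finger gene with a SCAN domain, was level, with 2.26 and 2.44 kb in CREBBP-KO clones, 2.38 and 2.09 kb in EP300-KO clones and 2.52 and 2.01 kb in WT. The ZNF165 window varied most between clones of a genotype, with 0.317 and 1.14 kb in CREBBP-KO clones, 1.97 and 0.960 kb in EP300-KO clones and 2.19 and 0.749 kb in WT. The ZKSCAN3 window had 0.892 and 1.36 kb in CREBBP-KO clones, 1.49 and 1.06 kb in EP300-KO clones and 0.645 and 0.955 kb in WT, and EP300-KO over WT was 0.82 (SE 0.28, limma adjusted p = 0.13). The windows of SLC17A1, PRSS16, a serine protease of the thymus, and GPX5 held no peak in any clone.

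Regions present in some clones and absent in others were mostly short. Of the 140 members, 67 (47.9%) had a peak in all 6 clones, as had 44.8% of all regions, and these covered a median of 1448 bases, while the other members covered a median of 174 bases where present. A single clone held 28 members alone (20%, against 22.7% of all regions). Of these, 24 were in a WT clone (15 and 9), which is 85.7%, against 56% over all regions.

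A region held by the 2 WT clones and by no clone of a knock-out was counted as lost there, and gained in the reverse case, with no test. CREBBP-KO lost 13 of the 95 members that both WT clones had (13.7%, against 4.94% of all such regions) and gained 0 of 73 (against 2.2%). EP300-KO lost 7 of 95 (7.37%, against 14.8%) and gained 1 of 90 (1.11%, against 3.33%). The lost members covered a median of 223 bases in WT in either case. Of the 13 lost in CREBBP-KO, 8 lay in histone windows, as did 55 of the 95 that could be lost. Both EP300-KO clones held 5 of the 13, and neither held another 5. With all lists shortened to the 35054 peaks of the shortest, the losses were 4 in CREBBP-KO and 1 in EP300-KO. Without the second WT clone they were 35 and 25, so these counts turn on weak peaks and on single clones.

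The largest lost member, chr6:26554464-26555297 in the ABT1 window, was absent in all 4 knock-out clones and had 834 and 177 bases in WT. In CREBBP-KO the next were a neighbouring pair in the same window. The region chr6:26502618-26503093 had 0 bases in both CREBBP-KO clones, 399 and 461 in EP300-KO and 312 and 264 in WT. The region chr6:26502186-26502510 had 0 bases in both CREBBP-KO clones, 280 and 265 in EP300-KO and 310 and 261 in WT. These were complete in EP300-KO and missing in CREBBP-KO, as 10 of the 90 members held by both EP300-KO clones were (11.1%, against 5.34% of all regions). The reverse held for 2 of the 73 members held by both CREBBP-KO clones (2.74%, against 11.5%).

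In EP300-KO the next largest lost members lay in histone windows. The region chr6:27104360-27104961, in the window of H2AC11 and H2BC12, had 0 bases in both EP300-KO clones, 0 and 194 in CREBBP-KO and 235 and 602 in WT. The region chr6:27793972-27794309, in the window of H4C11 and H2BC14, had 0 bases in both EP300-KO clones, 110 and 300 in CREBBP-KO and 148 and 302 in WT. The only member gained, chr6:28367650-28367867 in the ZKSCAN3 window, had 218 and 130 bases in EP300-KO and 0 in CREBBP-KO and WT.

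That last region also bounded the empty part. From chr6:28367868 to chr6:31588753 no list held a peak, a gap of 3.22 Mb, which was the 67th longest of 48852 gaps between neighbouring regions. By RefSeq order it runs about from GPX6 to AIF1 and includes 83 protein-coding genes counting both, among them 14 olfactory receptor genes. The class I windows named for HLA-F, HLA-G, HLA-E, HLA-C and HLA-B read 0 in all 6 clones. So did the windows of TUBB, a tubulin gene, of ABCF1 and PPP1R10, and of IER3, an early response gene. The lists hold peaks and no read counts, so a stretch without a peak cannot be told apart from a stretch without usable reads. No genotype can therefore be compared over the class I genes here. As a check of the cell type, the windows of the B cell genes CD79A, MS4A1, CD79B and PAX5 had between 10.5 and 30.2 kb in every clone, those of CD3E and CD14 between 3.02 and 8.10 kb, and that of ALB, a liver gene, 0.

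Sub-stretch C held 7 short regions, and 3 of them were in all 6 clones. In the window of LTA, TNF and LTB, cytokine genes of the lymphotoxin family, and of PRRC2A, the region chr6:31588754-31589125 had 353 and 365 bases in CREBBP-KO, 364 and 369 in EP300-KO and 367 and 355 in WT. This region directly follows the empty part, which by RefSeq order ends at about AIF1. LTA, TNF and LTB come before AIF1 in that order, so the peak lay on the PRRC2A side of the window. The peak was narrow, but its score ranked high within each list, at the percentiles 92.3 and 92.8 in CREBBP-KO, 93.3 and 90.5 in EP300-KO and 92.1 and 94.6 in WT. In the window of EHMT2, a histone methyltransferase, and NEU1, a sialidase, the region chr6:31802800-31803190 had 377 and 369 bases in CREBBP-KO, 348 and 317 in EP300-KO and 367 and 323 in WT. In the window of PBX2 and NOTCH4, a homeobox gene and a receptor gene, the region chr6:32122209-32122485 had 205 and 277 bases in CREBBP-KO, 226 and 139 in EP300-KO and 220 and 192 in WT. The genotypes overlapped in the first and last of these. In the region of the EHMT2 window both CREBBP-KO clones lay above the other clones, but barely, with 369 bases in the second against 367 in the first WT clone.

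The other 4 regions of sub-stretch C were missing in at least 1 clone. In the window of the heat shock genes HSPA1A and HSPA1B, chr6:31707660-31707856 had 142 and 162 bases in CREBBP-KO, 0 and 116 in EP300-KO and 192 and 128 in WT. Genes were placed only to the window, so this region is not tied to the heat shock genes. The region chr6:31803511-31803779 had 216 and 249 bases in CREBBP-KO, 0 in both EP300-KO clones and 207 and 0 in WT. No member of sub-stretch C met the rule for lost or gained, and none was long enough to enter limma's fit. The windows of BAG6 and CSNK2B, of the complement genes CFB and C4A, and of TNXB had no peak. Just beyond the stretch, in the MHC class II part, coverage returned. The window 32.5 to 32.6 Mb had 5.18 and 7.65 kb in CREBBP-KO clones and 4.54 and 5.12 kb in EP300-KO clones. WT had 10.4 and 10.1 kb there, above all 4 knock-out clones. Its better covered neighbour, 32.6 to 32.7 Mb, had 9.69 and 13.98 kb in CREBBP-KO clones and 10.34 and 9.937 kb in EP300-KO clones. WT had 13.68 and 14.93 kb there, so CREBBP-KO overlapped WT and EP300-KO lay below it. Of all windows tested, 18.3% were shorter in both CREBBP-KO clones than in either WT clone, and 55% in both EP300-KO clones.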

How the data were processed

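H3K27ac ChIP-seq of 6 SUDHL4 clones was used, with 12 samples in all, 6 of them inputs that entered only through the peak lists. CASAVA 1.8, Bowtie2 2.1.0 and SAMtools 0.1.19 and the build hg19 are named in the submitters' processing notes. Peaks were called for each clone against that clone's input, per the file headers, by a caller not given in the sources used here. Each deposited peak's score runs from 14 to 170 with no stated meaning and served only to rank peaks within a list. Depth per library is unknown, so no interval covers it. Starts were read as counted from 0.

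Covered length was fitted with limma 3.58.1 (R 4.3.3, trended prior), with all 6 clones in 1 fit, after a test on simulated data. Named members were those past the threshold, the 3 longest per sub-stretch and the 3 largest lost and gained per knock-out, and named windows came from a list of landmark genes. Other regions given were chosen after their values were seen. Some named windows are not reported here. Members and lists were chosen with earlier results of these data known. Alternatives were other pseudocounts (10 and 1000), no filter, no centring, quantile normalization, only the clones compared, each clone left out, equal list length, 1-Mb windows, peaks joined across 100 bases, a 50% presence rule, unscaled bases and the upper 50% of peaks by score. An untrended prior was added after the data were seen.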

Additional observations from a re-analysis of the deposited data

Results flagged for a closer look

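Regions and windows are listed here because the effects of the knock-outs differed by a test of the difference itself (limma, adjusted over all regions or windows). The log2 difference, CREBBP-KO over EP300-KO, was -0.96 for chr6:26473256-26475801 and -1.08 for its window, 26.4 to 26.5 Mb (BTN3A1 and BTN2A1). It was -0.55 for chr6:27445303-27447832 and -0.53 for its window, 27.4 to 27.5 Mb (ZNF184). It was -0.61 for the ABT1 window, 26.5 to 26.6 Mb. It was -0.53 for chr6:26124285-26126369 in the window of H1-4, H2AC6 and H2BC4. The lists of the CREBBP-KO clones held 36096 and 41099 peaks and those of the EP300-KO clones 35054 and 35841, and the part of list length in these differences was tested only by the alternative with lists of equal length.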

How the results depend on the processing

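No paired analysis was possible because replicate numbers only name clones. Calls between CREBBP-KO and EP300-KO turned on scaling and on single clones. Of 3 member regions called, 0 remained called without centring, with equal list length or with an untrended prior, and 5 were called with quantile normalization. Leaving out a clone gave from 0 to 2. Of 3 windows, the count was 0 without centring, 8 with quantile normalization, 1 with windows of 1 Mb, and from 0 to 3 leaving out a clone. Quantile normalization also called 2 windows in EP300-KO over WT, and no other alternative called a member against WT. All 6 named calls kept their sign in every alternative run.

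Members lost were 4 in CREBBP-KO and 1 in EP300-KO at equal list length, and 4 in EP300-KO with peaks joined across 100 bases. Leaving out a clone gave from 15 to 35 for CREBBP-KO and from 8 to 25 for EP300-KO. Members gained were 1 in CREBBP-KO and 6 in EP300-KO at equal list length, 1 in CREBBP-KO with the 50% presence rule, and from 0 to 2 and from 1 to 7 leaving out a clone.

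For EP300-KO over WT in unscaled bases, the log2 ratio was -0.12 for sub-stretch A and -0.15 for the histone windows, against 0.20 and 0.16 as shares. In sub-stretch C the share ratio of -0.04 for EP300-KO was 0.35 at equal list length and 0.32 in the upper 50% by score, and ran from -0.19 to 0.13 leaving out a clone. For CREBBP-KO in sub-stretch C it was 0.08, was 0.32 at equal list length, and ran from -0.077 to 0.25 leaving out a clone. The cause of these changes was not tested. Sub-stretch B was 0 in every list, so no alternative gives it a value. Depth is unknown, and 2 clones per genotype limit all tests.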
